A study of Mus musculus with 18 samples.

Results

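Smooth muscle contractile genes encode the apparatus by which a smooth muscle cell shortens, and 10 of them were followed here: Acta2, Tagln, Cnn1, Myl9, Tpm1, Tpm2, Actg2, Cald1, Myh11 and Des. They were picked by symbol, with no threshold on a measured value but with earlier results of these data known, and all 10 were found among the 20066 genes of the table of differentiation stages and among the 20268 genes of the table of fibroblast libraries. In smooth muscle, actin filaments slide past myosin when the regulatory light chain is phosphorylated, while tropomyosin, caldesmon and calponin sit along the actin filament and tune that contact. Most of these genes carry binding sites for serum response factor (SRF), which is joined there by myocardin in smooth muscle or by the myocardin-related factors MRTF-A and MRTF-B, encoded by Mkl1 and Mkl2. Several of them, Acta2 and Tagln above all, are also switched on in activated fibroblasts, and TGF beta is a known inducer of both.

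The 18 RNA-seq samples were of mouse cells of strain 129. The first 10 came from the in vitro differentiation of an embryonic stem cell line with a GFP reporter at Brachyury, grown on a feeder layer of fibroblasts: embryonic stem cells (ESC), mesoderm (MES, Bry:GFP+ and FLK1-), haemangioblasts (HB, Bry:GFP+ and FLK1+), haematopoietic progenitors (HP, CD41+) and macrophages (MAC, CD11b+), all later stages sorted on those proteins, with 2 samples per stage that the deposited table merges into 1 value. The other 8 were mouse embryonic fibroblasts of embryonic day 14.5 (MEFs), kept for 12 or 21 days without added factors (uFIB) or after expression of Scl and Lmo2 (SL), of Scl, Fli1, Gata2 and Lmo2 (SFGL), or of Fli1, Gata2 and Lmo2 (FGL), with 1 library per treatment and day. The MEFs were either wild type or carried iTal1-2A-GFP, an inducible TAL1 (the protein of Scl) under doxycycline, and the labels do not say which libraries had which; per the study's methods, cells with the surface proteins CD45, CD41, CD31 or CD117 had been removed before the factors were added.

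All values are FPKM (fragments per kilobase of transcript scaled to the mapped reads of each library). They do not show the read depth behind them, and numbers of aligned reads were not used here. Being per length, levels of different genes can be set side by side, but less surely for genes that share sequence with others. From the step size of the lowest values, which 15.0 to 19.2% of the low genes shared, the fibroblast libraries had between 0.587 and 1.56 times the depth of uFIB day 12. In SL and SFGL Tal1 was 58.0 to 347 FPKM against at most 0.415 in uFIB, and Lmo2 was 48.4 to 150 against at most 2.28. SL, labelled with Scl and Lmo2 alone, also held Fli1 (46.7 FPKM on day 12 and 34.4 on day 21) and Gata2 (68.8 and 62.6 FPKM) above uFIB, where Fli1 was 3.43 and 3.02 and Gata2 1.80 and 2.13 FPKM; whether these came from an added or the cells' own gene cannot be told apart. The libraries labelled FGL went against their label in part: Tal1, which was not to be added, was 7.04 FPKM on day 12, and Fli1 on day 21 was 3.35 FPKM against 3.02 in uFIB, so each statement on them below is about libraries with that label. Smooth muscle itself was not a labelled cell type here, and myocardin (Myocd), its defining cofactor, was at most 0.246 FPKM in every column.

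RefSeq entries of upstream sequence (250 bases before to 50 after a start site, GRCm38.p6) were matched for 7 of the 10 genes, in 8 windows, and searched on both strands for the CArG box, to which SRF binds, and for CATTCC, the MCAT element bound by TEAD factors. The 2 motifs share no base in any of these windows. A CArG box in its strict form lay in 1 of the 7 genes (Myl9, 161 bases before the start site) against 1.63% of all 32851 promoter windows, and CATTCC lay in 3 of the 7 (Acta2, Cald1 and Tpm1) against 14.7% of all windows. Counted by window, as for all promoters, these were 1 of 8 and 3 of 8. The Cald1 match lay in only 1 of its 2 windows, and not in the one at the start site behind its stage values. The 200 bases before the start site are shown for 3 genes with different patterns below: Acta2 was highest in HP among the stages followed here, Myl9 fell in fibroblasts with SL or SFGL, and Tpm1 was read from different start sites in different stages. RefSeq's bounds of these 3 genes reach past the start sites used here, so parts of the windows lie inside longer annotated transcripts. Capitals mark the strict CArG box in Myl9 and GGAATG, the reverse complement of CATTCC, in the others. Strings 1 base off the strict CArG box were not searched for and stay in lower case. Among them are ccctatatgg and ccttgtttgg in Acta2 and ccttgtaagg in Myl9. A match is a string of letters and not a measured binding site.
Acta2, chr19:34255374-34255573, minus strand: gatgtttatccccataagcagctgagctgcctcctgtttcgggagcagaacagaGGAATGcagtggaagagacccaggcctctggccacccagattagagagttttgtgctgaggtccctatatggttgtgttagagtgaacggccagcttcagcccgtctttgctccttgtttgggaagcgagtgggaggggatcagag
Myl9, chr2:156775264-156775463, plus strand: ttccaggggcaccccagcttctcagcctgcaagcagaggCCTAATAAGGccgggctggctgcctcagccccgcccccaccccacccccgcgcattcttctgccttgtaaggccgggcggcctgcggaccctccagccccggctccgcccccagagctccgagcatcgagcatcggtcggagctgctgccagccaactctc
Tpm1, chr9:67049214-67049413, minus strand: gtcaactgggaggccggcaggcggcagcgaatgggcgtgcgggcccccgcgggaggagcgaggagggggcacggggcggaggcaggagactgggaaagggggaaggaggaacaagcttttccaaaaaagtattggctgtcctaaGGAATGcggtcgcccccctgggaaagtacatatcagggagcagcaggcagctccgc

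Across blood development the contractile genes were not silent in the stem cells: 8 of 10 reached 1 FPKM (ESC), 8 (MES), 7 (HB), 7 (HP) and 3 (MAC). Their summed level was 468 FPKM (ESC), 344 (MES), 288 (HB), 294 (HP) and 32.9 (MAC). Most of that sum was Tpm1, whose share ran from 46.3% in HP to 85.6% in MAC. In the study's pathway haemogenic endothelium (HE) lies between HB and HP. It has no sample here, so HB to HP is not a step between neighbouring stages. With 1 merged value per stage there is no replicate check and no test between stages, so a difference is counted below when it is at least 2-fold on log2(FPKM + 0.001) and 1 of the 2 stages reaches 1 FPKM.

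Among the stages with samples here, Acta2 (smooth muscle alpha actin, chr19:34240336-34255585) was the only one of the 10 with its highest value in HP. It was 14.3 FPKM (ESC), 1.37 (MES), 0.705 (HB), 87.3 (HP) and 1.22 (MAC). The HP value was 124 times the HB value and 71.5 times the MAC value, and in HP Acta2 ranked second among the 10 genes, behind Tpm1, after ranking eighth in MES and HB. The other smooth muscle actin did not share the peak: Actg2 (gamma-2 actin, chr6:83512909-83536251) was 0.242 FPKM (ESC), 0.147 (MES), 0.286 (HB), 0.281 (HP) and 0.227 (MAC). Of the 50-base windows of the Acta2 transcripts 0.326% also occur in another gene's transcripts, and none of those of Actg2 do. Only identical windows were counted. The part of reads that match more than 1 gene with mismatches was not tested.

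The proteins that lie along the thin filament were led by Tpm1 (tropomyosin 1, chr9:67022590-67049672), with 253 FPKM (ESC), 239 (MES), 227 (HB), 136 (HP) and 28.2 (MAC). It was the highest of the 10 in every stage. Tpm2 (tropomyosin 2, chr4:43513726-43523583) ran at a far lower level, with 11.2 FPKM (ESC), 6.68 (MES), 5.58 (HB), 3.83 (HP) and 0.565 (MAC). Tagln (transgelin or SM22, an actin-binding protein, chr9:45929628-45936058) was 124 FPKM (ESC), 62.9 (MES), 25.8 (HB), 37.3 (HP) and 0.332 (MAC). Its level in ESC was the highest of any stage, and the HP value was 112 times the MAC value. Cnn1 (calponin 1, which restrains the myosin motor, chr9:22099221-22109221) was 11.9 FPKM (ESC), 6.77 (MES), 4.02 (HB), 0.855 (HP) and 0.0103 (MAC), lower at each stage than at the one before. Cald1 (caldesmon, chr6:34598495-34775469) was 31.8 FPKM (ESC), 12.5 (MES), 12.2 (HB), 19.6 (HP) and 1.96 (MAC). Like Tagln, it was higher in HP than in HB by less than 2-fold (1.60 times for Cald1 and 1.45 times for Tagln).

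Of the motor itself, Myl9 (the smooth muscle regulatory light chain, chr2:156775408-156781657) was present and Myh11 (the smooth muscle heavy chain, chr16:14194527-14292188) hardly so. Myl9 was 17.3 FPKM (ESC), 11.9 (MES), 9.52 (HB), 6.17 (HP) and 0.148 (MAC). Myh11 was 0.0882 FPKM (ESC), 0.150 (MES), 0.0220 (HB), 0.0816 (HP) and 0.0168 (MAC), below 1 FPKM throughout. Des (desmin, the muscle intermediate filament, chr1:75360292-75368579) was 3.34 FPKM (ESC), 2.60 (MES), 3.30 (HB), 2.44 (HP) and 0.256 (MAC). From ESC to HP it moved by less than 2-fold at each transition and was then 9.53 times lower in MAC.

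**Figure D1:**
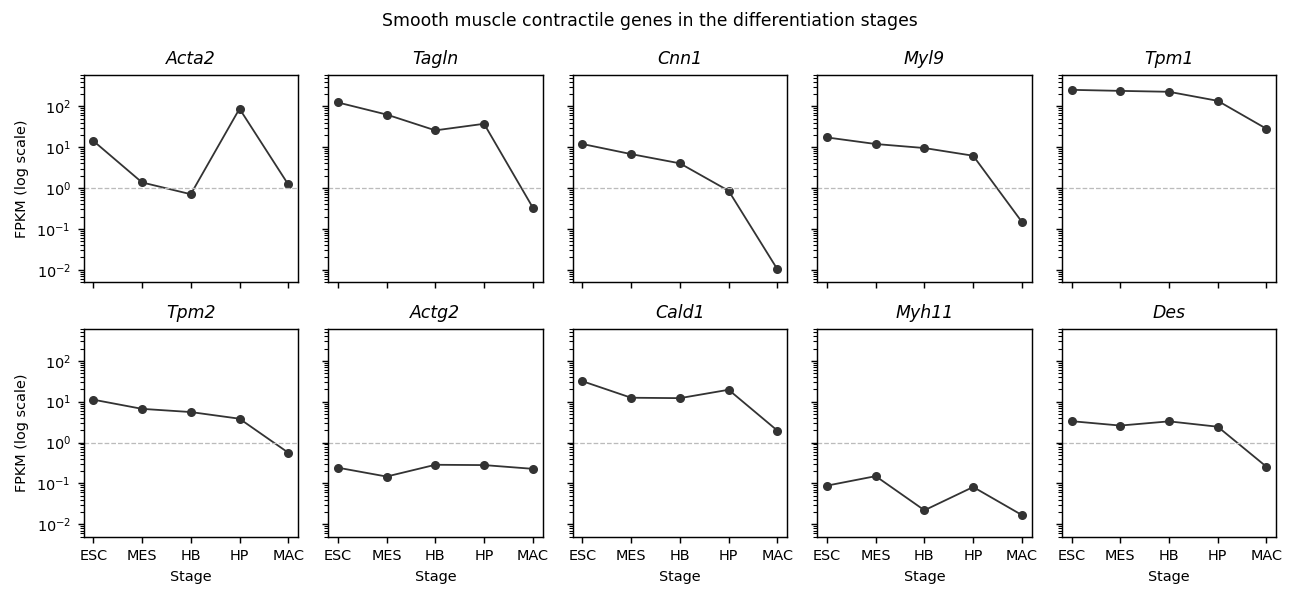
FPKM on a log scale (y) of each of the 10 genes in ESC, MES, HB, HP and MAC (x), 1 merged value per stage and so no error bar; the dashed line is 1 FPKM. Acta2 alone has its highest point in HP (87.3 FPKM), Tagln, Cnn1, Myl9, Tpm1, Tpm2, Cald1 and Des are highest in ESC, and Actg2 and Myh11 stay below the line.

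Counted by transition, most of the lower values came at the last step. From ESC to MES none of the 8 genes that could be counted was higher (11.3% of all 10606 genes were) and 2, Acta2 by 10.4-fold and Cald1 by 2.54-fold, were lower (12% of all genes). The labels name other software for ESC than the study's methods give for the stages. Whether this moved the ESC values, here or above, was not tested. From MES to HB none was higher (4.05% of all) and 1, Tagln by 2.44-fold, was lower (6.3%). Acta2 was 1.94 times lower at that step, just inside the limit, and passed it when the stages were scaled to one upper quartile. From HB to HP Acta2 alone was higher (12.3% of all genes) and Cnn1 alone, by 4.70-fold, was lower (12.8%). From HP to MAC none was higher (38% of all 10819 genes) and 7 of 7 were lower (16.9%): Acta2, Tagln, Myl9, Tpm1, Tpm2, Cald1 and Des, by 4.83-fold (Tpm1) to 112-fold (Tagln). The median over the 10 genes from HP to MAC was -1.93 on log2(FPKM + 1), against 0.36 over all genes, so the table as a whole leaned upwards at that step; the median over all genes moved by 0.11 from MES to HB and by -0.12 from HB to HP.

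The lower Tpm1 level in MAC was found at 1 of its 2 annotated start sites. TSS21199, as the table names it, was 242 FPKM (ESC), 234 (MES), 221 (HB), 120 (HP) and 1.48 (MAC). TSS21198 was 11.0 FPKM (ESC), 5.37 (MES), 5.72 (HB), 16.2 (HP) and 26.7 (MAC), its highest level in the cells where the gene as a whole was lowest. The upper quartile of the gene values was also higher in MAC (18.1 FPKM) than in HP (10.8). Whether TSS21198 was higher in MAC beyond that difference in scale was not tested. The share of Tpm1 from TSS21199, which does not depend on that scale, was 95.7% in ESC and 5.25% in MAC. The table gives both rows the same locus, so which promoter each stands for, and whether the window printed above belongs to it, could not be read from it; how reads are divided between start sites is an estimate of the authors' software.

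**Figure D2:**
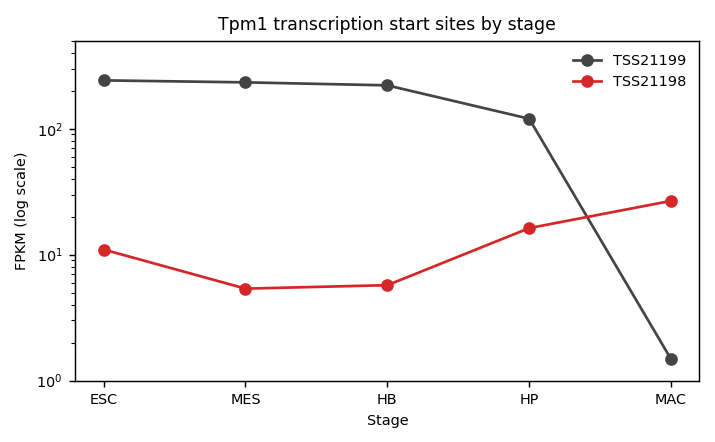
FPKM on a log scale (y) of the 2 annotated Tpm1 start sites in each stage (x), 1 merged value per stage. TSS21199 goes from 242 FPKM in ESC to 1.48 in MAC, TSS21198 from 11.0 to 26.7, and the lines cross between HP and MAC. The stages were not scaled to one upper quartile.

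The wider smooth muscle programme did not accompany Acta2 into HP as a block. Over all genes, 12.3% were higher and 12.8% lower from HB to HP by the same limit. Of 13 other smooth muscle genes 7 could be counted from HB to HP: 2 were higher, Mylk (myosin light chain kinase) and Csrp1 (a LIM protein), and 2 were lower, Itga8 and Ppp1r14a. Mylk was 0.0711 FPKM in HB and 1.25 in HP, and Csrp1 was 23.0 and 46.3 FPKM. Of the 10 general targets of SRF and MRTF 3 were higher in HP than in HB (Tln1, Ankrd1 and Zyx) and 1 was lower (Actn1). Of the 6 regulators Mkl1 alone differed by the limit, with 1.14 FPKM in HB and 4.31 in HP, and Srf was 13.5 and 8.59 FPKM. Of 10 TGF beta genes 5 were higher in HP, among them Tgfb1 (10.6 FPKM in HB and 26.5 in HP) and its receptor gene Tgfbr2 (1.82 and 6.79 FPKM), and 2 were lower.

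Collagen and periostin markers of fibroblasts were higher with Acta2 at that step, and other fibroblast markers were lower. The summed level of 7 fibroblast markers was 6.89 FPKM (ESC), 11.7 (MES), 22.2 (HB), 60.9 (HP) and 3.96 (MAC). Of the 5 that could be counted 4 were higher in HP than in HB (12.3% of all genes were): Col1a1, Col1a2, Col3a1 and Postn. Postn (periostin) was 0.0299 FPKM in HB and 23.3 in HP, and Col1a2 was 0.897 and 17.6 FPKM, while Pdgfra, which made up most of the HB sum, was 16.7 and 0.494 FPKM and Thy1 was 0.931 and 0.00523 FPKM. No marker of the 7 was at 0. Of 4 endothelial markers 3 were also higher in HP: Pecam1 was 1.51 FPKM in HB and 25.7 in HP, Cdh5 was 1.70 and 10.8, and Tek was 2.14 and 9.996, while Kdr, which encodes the sort marker FLK1, was 77.6 and 21.4 FPKM. The part of these markers in the Acta2 value was not tested, and in sorted bulk samples more cells of a type and more RNA per cell cannot be told apart. The summed level of 6 blood progenitor markers was 165 FPKM in HP against 8.58 in HB, and that of 6 macrophage markers was 1587 FPKM in MAC against 7.92 in HP. The blood progenitor markers were not all particular to HP. Sfpi1 was 16.7 FPKM in HP and 111 in MAC, and Ptprc was 5.66 and 94.0, while Itga2b, Gata1, Gfi1b and Runx1 were lower in MAC. Of 13 striated muscle genes at most 3 reached 1 FPKM in any stage.

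In uFIB the 10 genes summed to 1325 FPKM on day 12 and 828 on day 21, of which Tpm1, Cald1, Acta2, Tagln and Myl9 made up the most. The question of the fibroblast series was what the blood factors did to these cells, and on day 12 the contractile genes were lower in both mixes that held Scl: the sum was 370 FPKM in SL and 403 in SFGL. By day 21 it was 645 FPKM in SL and 493 in SFGL, nearer to the 828 of uFIB on that day. The libraries labelled FGL summed to 1520 FPKM on day 12 and 1396 on day 21, the highest of each day. The 2 tables were normalized separately, so stage and fibroblast values are set side by side here only as levels.

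Acta2 was 258 FPKM (uFIB), 50.1 (SL), 76.2 (SFGL) and 351 (FGL) on day 12, and 111, 93.8, 70.0 and 244 FPKM in the same order on day 21. The SL and SFGL values lay below both uFIB values, although SL on day 21 came within 1.19-fold of uFIB. Actg2 was 4.33 FPKM (uFIB), 1.23 (SL), 1.69 (SFGL) and 4.72 (FGL) on day 12, and 7.92, 6.25, 6.54 and 14.9 FPKM on day 21. All 4 day 21 values were above all 4 day 12 values.

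Tpm1 was 408 FPKM (uFIB), 165 (SL), 147 (SFGL) and 418 (FGL) on day 12, and 309, 266, 199 and 429 FPKM on day 21. It was again the highest of the 10 in each library. Tpm2 was 63.0, 17.2, 17.7 and 79.4 FPKM on day 12 and 31.3, 31.0, 23.7 and 77.7 on day 21 in that order, so that SL and uFIB differed on day 12 by 3.66-fold and on day 21 by 1.01-fold. Tagln was 199, 31.0, 50.5 and 206 FPKM on day 12 and 73.2, 40.3, 32.0 and 136 on day 21. Its SL and SFGL values were below both uFIB values, and its 6.42-fold difference between SL and uFIB on day 12 was the largest of the 10 genes. Cald1 was 258, 79.4, 72.4 and 305 FPKM on day 12 and 200.5, 145, 106 and 300.5 on day 21, again with every SL and SFGL value below both uFIB values. Cnn1 was 1.96, 0.314, 0.540 and 1.18 FPKM on day 12 and 1.48, 1.72, 1.07 and 2.77 on day 21, low throughout and with SL above uFIB on the later day.

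Myl9 was 125 FPKM (uFIB), 23.4 (SL), 34.4 (SFGL) and 151 (FGL) on day 12, and 88.3, 50.1, 48.0 and 179 FPKM on day 21. Here too all SL and SFGL values were below both uFIB values and both values labelled FGL were above them. Myh11 was 0.589, 0.126, 0.120 and 0.719 FPKM on day 12 and 1.69, 1.66, 0.650 and 4.11 on day 21, below 1 FPKM in every library of day 12. Des was 5.34, 2.42, 2.28 and 2.92 FPKM on day 12 and 3.14, 9.07, 5.91 and 8.75 on day 21. It alone of the 10 was below uFIB under every mix on day 12 and above uFIB under every mix on day 21.

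**Figure D3:**
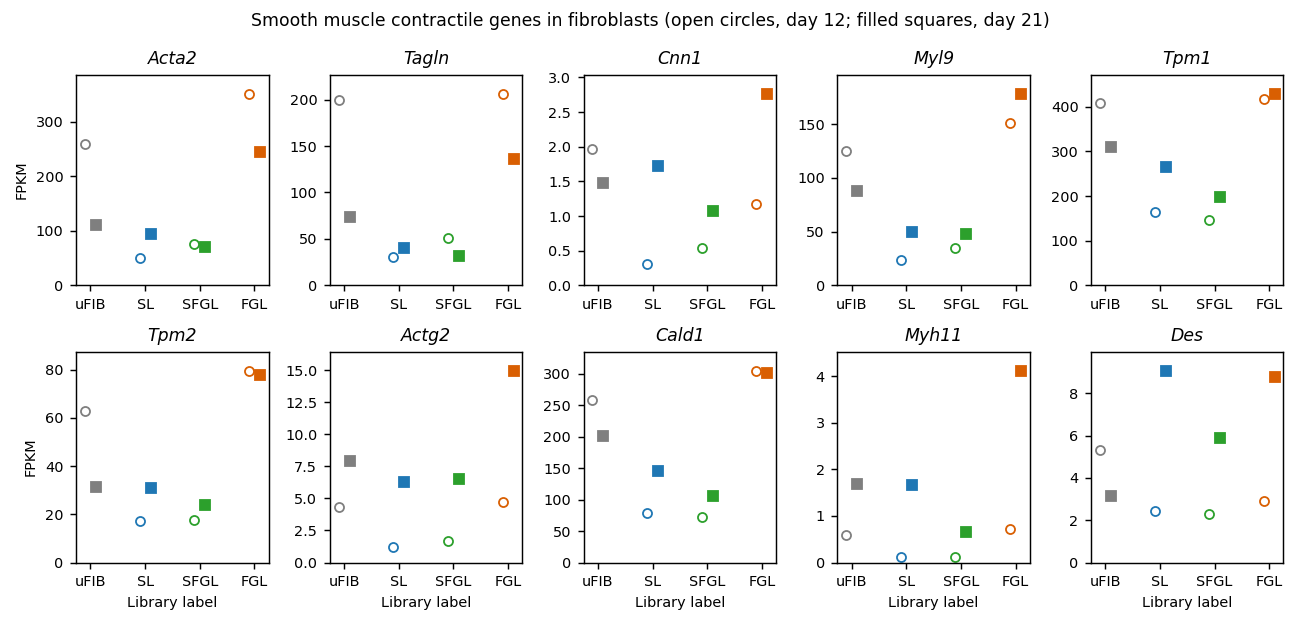
FPKM (y, linear and starting at 0, with its own range in each panel) of the 10 genes by library label (x); open circles are day 12, filled squares day 21, 1 library each. On day 12 the SL and SFGL circles lie below uFIB in all 10 panels, and on day 21 the FGL squares lie above uFIB in all 10.

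By the 2-fold limit, on day 12 9 of the 9 genes that could be counted were lower in SL than in uFIB (18.2% of all genes were) and none was higher (16.3%). In SFGL 9 of 9 were lower (21.5% of all) and none higher (16.9%), and in the library labelled FGL none was lower (1.19%) or higher (3.91%). On day 21 the counts were different. In SL none of 10 was lower (15.7% of all) and Des was higher (14.6%). In SFGL Tagln and Myh11 were lower (20.2%) and none was higher (16.5%). In the library labelled FGL none was lower (0.984%) and 5 were higher (1.15%): Des by 2.79-fold, Tpm2 by 2.48-fold, Myh11 by 2.44-fold, Acta2 by 2.19-fold and Myl9 by 2.02-fold. The next outside the limit were Actg2 at 1.89 and Cnn1 at 1.87 times uFIB. Each of these counts compares 1 library with 1 other, so they carry no replicate check.

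Across both days, treatment and day were fitted together by limma on log2(FPKM + 1) over 11989 genes, with 3 residual degrees of freedom. Of the 10 genes 4 fell in SL against uFIB at an adjusted p under 0.05 (27.1% of all genes fell) and none rose (25.4% of all). These were Tagln, by 1.74 on the log2 scale (SE 0.39, adjusted p = 0.0151), Myl9 by 1.59 (SE 0.35, adjusted p = 0.0138), Cald1 by 1.08 (SE 0.30, adjusted p = 0.0301) and Actg2 by 0.78 (SE 0.24, adjusted p = 0.0405). In SFGL 4 of 10 fell (30.8% of all genes) and none rose (27.9%): Tagln by 1.56 (adjusted p = 0.0188), Cald1 by 1.36 (adjusted p = 0.0120), Myl9 by 1.35 (adjusted p = 0.0205) and Tpm1 by 1.05 (adjusted p = 0.0184). Acta2 had log2 differences of -1.29 in SL (95% interval -2.46 to -0.12, adjusted p = 0.0637) and -1.20 in SFGL (-2.37 to -0.04, adjusted p = 0.0723) and did not pass. The share of the 10 genes that passed, 4 of 10, was not far from that of all genes, while their median differences, -0.85 in SL and -1.07 in SFGL, stood beside medians of -0.03 and -0.03 over all genes.

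The calls of that fit rested on the day 12 libraries. Without uFIB day 12 none of the 10 fell in SL or in SFGL and Des rose in both. Without SL day 12 none fell in SL, and without SFGL day 12 none fell in SFGL. Without uFIB day 21 9 fell in each, and without SFGL day 21 only 1 fell in SFGL. Since each treatment had 1 library per day, a difference between days cannot be told apart from a difference between single libraries.

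In the libraries labelled FGL against uFIB limma called none of the 10 in either direction (higher 0.0167% of all genes, lower 0%), and none had an unadjusted p under 0.05, against 179 genes higher and 286 lower at that level among all tested. The 2 genes called were Gata2 and Lmo2, both among the added factors. The median difference of the 10 was 0.47, against -0.00 over all genes, and the estimates ran from 0.08 (Cnn1, 95% interval -0.74 to 0.90) to 0.81 (Tpm2, -0.23 to 1.84), which leaves room for more than a 2-fold increase in the second. Between the days, Actg2 alone rose, by 1.35 on the log2 scale (SE 0.17, adjusted p = 0.0331; 1.19% of all genes rose), and none of the 10 fell (1.43% of all). The Actg2 call was lost (adjusted p of 0.115 to 0.153) without any one of the 6 libraries of SL, SFGL and FGL, which left none of the 10 called, and without either uFIB library Des also passed, giving 2. The second largest day difference was that of Myh11, 1.03 (adjusted p = 0.0640).

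**Figure D4:**
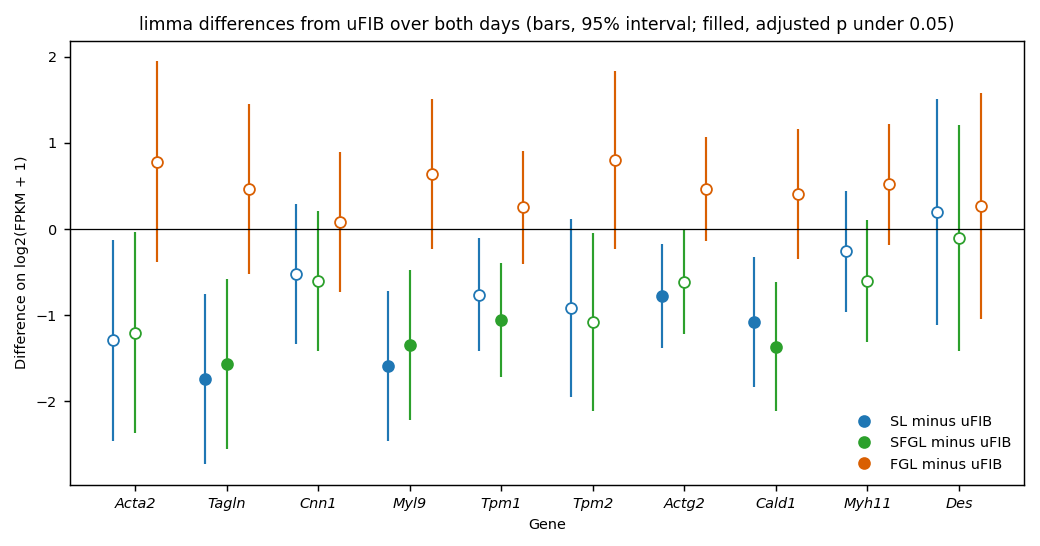
Difference from uFIB on log2(FPKM + 1) (y) for the 10 genes (x) in the limma fit over 8 libraries; bars are 95% intervals, and filled points have an adjusted p under 0.05. Tagln, Myl9 and Cald1 are filled in both SL and SFGL, and all 10 FGL points are open, with intervals that include 0.

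Fibroblast markers moved in the same libraries. Of 8 markers 7 fell in SL (27.1% of all genes did) and 8 in SFGL (30.8%) by limma. Their median log2 differences were -1.85 and -2.21, and none was called in FGL. Their sum was 7910 FPKM (uFIB), 2630 (SL), 2137 (SFGL) and 6695 (FGL) on day 12, and 5999, 1604, 1263 and 6077 FPKM on day 21, with no marker at 0 in any library. The 6 blood progenitor markers all rose in SL (25.4% of all genes did) and SFGL (27.9%). Their sum was 223 to 367 FPKM there against 21.1 and 26.3 in uFIB, where Runx1 made up most (19.9 and 24.5 FPKM). In the library labelled FGL on day 12, Sfpi1 was 16.9, Itga2b 8.83, Gfi1b 3.75, Gata1 3.69, Ptprc 0.468 and Runx1 20.5 FPKM. On day 21 all of these but Runx1 (24.8 FPKM) were below 1 FPKM there, and limma called none of the 6 in FGL. The sums of 6 macrophage markers were 21.4 to 52.2 FPKM in SL and SFGL against 3.72 and 5.73 in uFIB, and those of 5 endothelial markers were 22.5 to 32.9 against 10.8 and 10.9. The part of these markers in the contractile gene values was not tested. From day 12 to day 21 the contractile genes and the fibroblast markers did not move alike in SL: all 10 contractile genes were higher on day 21, by 1.30-fold (Tagln) to 13.2-fold (Myh11), while 7 of the 8 markers were lower and the median over all genes was -0.10 on log2(FPKM + 1). The Myh11 fold starts from a low value, 0.126 FPKM. On log2(FPKM + 1) the Myh11 difference was 1.24, against 1.70 for Actg2. In SFGL 8 of the 10 were higher on day 21 and Acta2 and Tagln were lower, with 7 of the 8 markers lower too.

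The rest of the programme was mixed. Over all genes, 25.4% rose and 27.1% fell in SL, and 27.9% rose and 30.8% fell in SFGL. The counts below are to be read beside these shares. Of 11 other smooth muscle genes tested Mylk fell in SL (log2 difference -0.88, adjusted p = 0.0194), and Mylk, Nexn, Pdlim7 and Synpo2 fell in SFGL. Among 5 regulators Fhl2, a LIM cofactor of SRF, fell in both (112 FPKM in uFIB on day 12 against 17.9 with SL and 16.4 with SFGL), Klf4 and Mkl2 fell in SFGL, and Srf and Mkl1 rose in SL by 0.42 and 0.77 on the log2 scale. Of 10 general SRF and MRTF targets 1 rose and 1 fell in SL, and 1 rose and 2 fell in SFGL. Of 10 TGF beta genes 2 rose and 3 fell in SL, and 1 rose and 6 fell in SFGL. Tgfb1 itself rose in both, from 29.2 FPKM in uFIB to 190 (SL) and 247 (SFGL) on day 12. Of 13 striated muscle genes 1 was abundant enough to test, Tnnc1, which rose in both and stayed between 1.08 and 2.26 FPKM.

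In some protein families a non-muscle relative rose where the contractile member fell, and in others relatives fell too: Cnn3, Myh10 and Vim fell in both SL and SFGL. Tagln was 62.3% of transgelin FPKM in uFIB on day 12, 9.56% in SL and 13.4% in SFGL, while Tagln2 rose by 1.11 and 1.32 on the log2 scale in the limma fit (adjusted p = 0.00220 and 0.00102). On day 12 the share of Myl9 among regulatory light chains was 23.6% in uFIB against 3.20% with SL and 4.06% with SFGL, and Myl12b rose in both. On day 21 the Myl9 share was 19.6% in uFIB, 8.50% in SL and 7.18% in SFGL, still apart. Among tropomyosins Tpm3 rose and Tpm4 fell in both, and Tpm1 went from 42.5% to 27.3% in SL and 25.7% in SFGL on day 12. Of the 50-base windows, 19.1% of Myl12b, 16.4% of Myl12a, 23.2% of Tpm3, 11.7% of Tpm4 and 10.3% of Cnn3 occur in other transcripts. This leaves the light chain, tropomyosin and calponin shares uncertain, in the stages too. Of the myosin heavy chains Myh11 never held more than 1.51% in any fibroblast library, and Myh9 held 82.8 to 97.2%.

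The same shares ran down through the stages for transgelin, calponin and the light chain. Tagln was 56.3% of its family in ESC, 45.7% (MES), 30.8% (HB), 20.4% (HP) and 0.224% in MAC, where Tagln2 made up 99.8%. Cnn1 was 6.96% of calponin FPKM in ESC and 1.24% in HP, and Myl9 was 15.2% of its family in ESC and 0.0875% in MAC. Acta2 was 0.828% of actin FPKM in ESC, 0.0371% in HB and 4.86% in HP, with Actb above 94% in every stage. Actg1, the other cytoplasmic actin, was 4.01 to 22.8 FPKM in the stages against 631 to 1039.7 in the fibroblasts, and 37.4% of its 50-base windows occur in other transcripts, so its level in the stage table, made from uniquely mapped reads, and with it the actin shares, are uncertain. Des was 6.77% of the sum of desmin and vimentin in ESC and 0.0120% in MAC, in which Vim was 2128 FPKM.

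**Figure D5:**
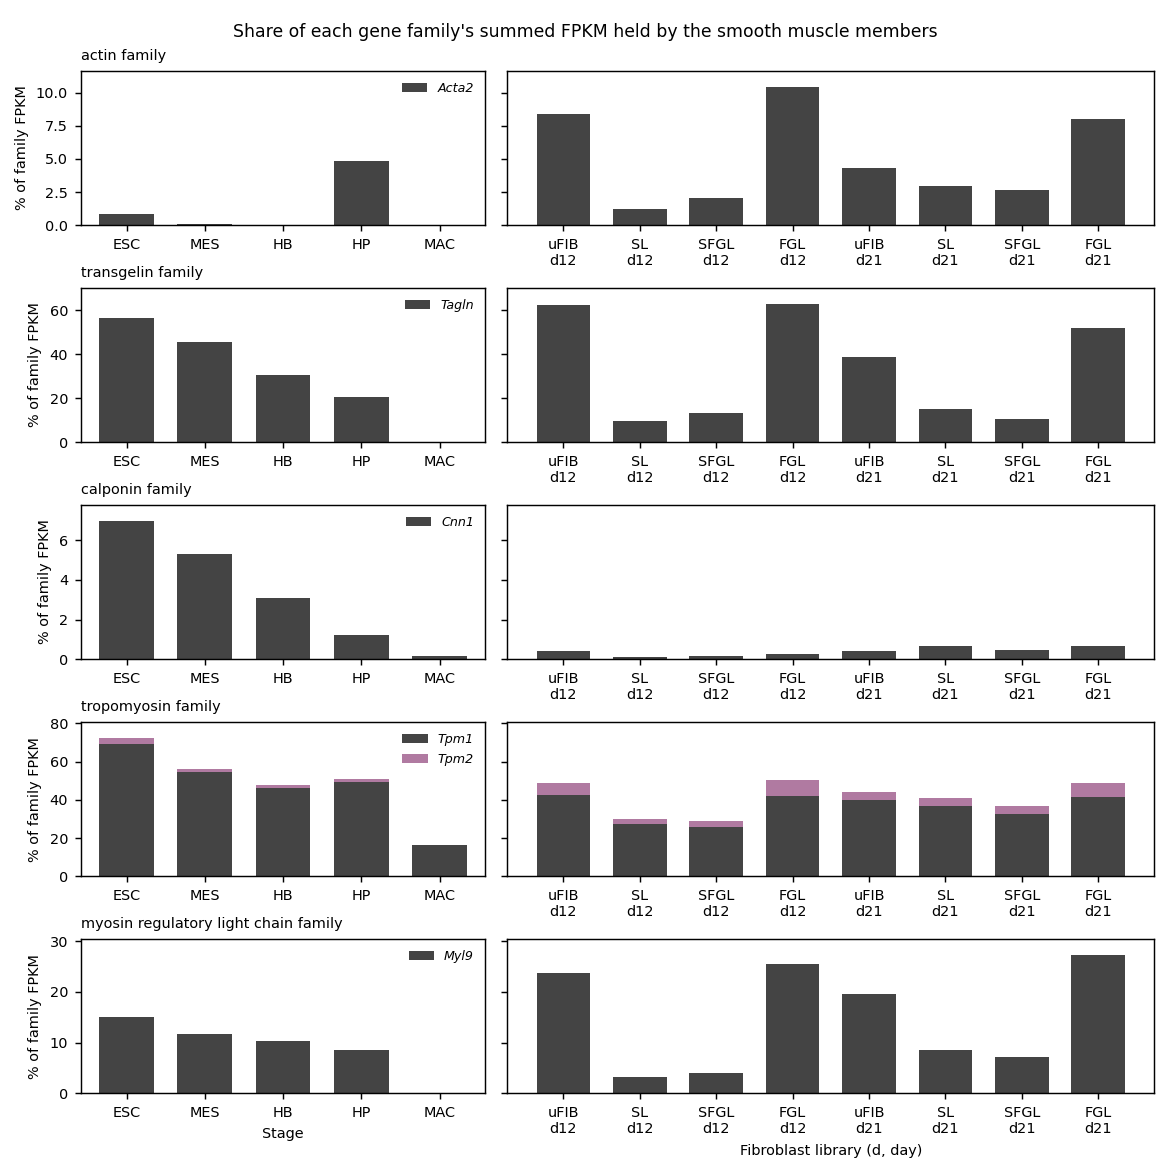
Percent of the summed FPKM of the family (y, from 0) held by Acta2, Tagln, Cnn1, Tpm1 with Tpm2, and Myl9 in each stage (left) and each fibroblast library (right), 1 value each. The Tagln bar is 62.3% in uFIB on day 12 and 9.56% in SL, and in the stages it goes from 56.3% in ESC to 0.224% in MAC.

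Outside the list, the 5 genes whose profile over the 8 fibroblast libraries was most like the mean profile of the 10, among 7896 genes that reached 10 FPKM, were Car11 (Pearson r = 0.989), Npr2 (0.984), Smarcd3 (0.978), Lrrc32 (0.978) and Tpm4 (0.976). Within the list the correlation with that mean, to which each gene itself contributed, ran from 0.599 (Des) and 0.785 (Myh11) to 0.964 (Tpm1). These are descriptions over 8 libraries that share treatments and days, and carry no test.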

How the data were processed

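RNA was sequenced as 50-base single-end SOLiD reads. For the stages the authors aligned reads with SHRiMP, kept unique reads, removed duplicates with Picard and computed FPKM with Cufflinks per start site on mm10, merging 2 replicates; the labels name TopHat and Cufflinks for the fibroblasts and Bowtie and HOMER for ESC, with versions not given in the sources used here. The deposited values used were FPKM in both tables, and 1 further value column, a stage with no sample here (HE), was not analysed here. Rows of 1 gene were summed. Stage differences were counted at 2-fold with a pseudocount of 0.001 and at least 1 FPKM in 1 stage. Fibroblasts were tested with limma 3.58.1 in R 4.3.3 on log2(FPKM + 1), with treatment and day as additive terms, a mean of at least 1 FPKM, a variance trend and Benjamini-Hochberg adjustment over 11989 genes, at an adjusted p of 0.05. The scripts were tested on simulated data. The 8 libraries are not labelled as separate cultures, so p-values measure only the spread that treatment and day leave. With 1 library per treatment and day, that spread mixes noise, which may be technical, with any treatment difference that changed between days. Pseudocounts, filters, scaling and left-out libraries were varied. All 10 members are named; other genes are named as the highest or called of their list, as family partners, or for their likeness. Members and lists were chosen with earlier results of these data known, and Postn, Thy1 and some further list genes were named after their values were seen. Sequences are from RefSeq, GRCm38.p6.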

Additional observations from a re-analysis of the deposited data

Results flagged for a closer look

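Cnn1 and Des stood out because their difference from uFIB had opposite signs on the 2 days, with 1 library behind each value; the difference between days was not tested. On log2(FPKM + 1), Cnn1 in SL was -1.17 from uFIB on day 12 and 0.13 on day 21, and in the libraries labelled FGL it was -0.44 and 0.60. Des differed in sign under all 3 mixes: -0.89 and 1.28 in SL, -0.95 and 0.74 in SFGL, and -0.69 and 1.24 in FGL on day 12 and day 21. Des in uFIB was 5.34 FPKM on day 12 and 3.14 on day 21, and Cnn1 did not exceed 2.77 FPKM in any fibroblast library.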

How the results depend on the processing

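No paired analysis was possible because the stage table merges its numbered replicates; in the fibroblast fit, where libraries carry no replicate number, day was a term. Of the counts of members, 110 under another pseudocount, filter or scaling or without both FGL libraries stayed within 1.5 times and 8 did not; with 1 library left out, 47 did and 17 did not. From MES to HB 2 genes were lower with no minimum FPKM and 2 with upper-quartile scaling, against 1. From HB to HP 2 were higher with no minimum, and 0 were lower with a minimum of 5 FPKM. For SFGL on day 21, 1 gene was lower with a pseudocount of 1 and 1 with a minimum of 5 FPKM, against 2. Without a filter on low values, or without both FGL libraries, 0 genes rose from day 12 to day 21. The settings for single days and the fit without FGL were chosen after seeing the data. Leaving out each fibroblast library in turn gave 0 to 9 lower and 0 to 1 higher in SL, 0 to 9 lower and 0 to 1 higher in SFGL, and 0 to 2 higher on day 21; FGL stayed at 0. Where a treatment was left with 1 library, that library was assumed to vary like the others. The log2 difference of Des changed sign with the library left out, from -0.77 in SL without uFIB day 21 (limma adjusted p = 0.0447) to 1.16 without uFIB day 12, and from -1.07 in SFGL without uFIB day 21 to 0.86 without uFIB day 12 (limma adjusted p = 0.0316); the cause was not tested. Numbers of aligned reads were not used here, so how precisely Myh11, Cnn1 and Actg2 were measured at their low FPKM was not assessed.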
